A study of Mus musculus with 4 samples.

Results

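The 74 genes described here are the axon guidance ligands and receptors of mouse tumour cells: semaphorins, plexins, neuropilins, Slits, Robos, netrins, Unc5 receptors, Dcc, ephrins and Eph receptors. They were chosen by symbol alone, out of 32286 features. Of the 74, 69 are guidance genes, and 5 match by name only: Unc50, Unc5cl and 3 antisense RNAs of Plxna4 (Plxna4os1, Plxna4os2 and Plxna4os3).

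The tumours, labelled MB, came from mice of genotype fSMO-M2;hGFAPcre (SG) and from rescued mice of genotype fYap1;fSMO-M2;hGFAPcre (YSG), males and females, at end point. SMO-M2 is a constitutively active Smoothened, the transducer of Sonic hedgehog signals, and both genotypes carry it with hGFAPcre, in which the promoter of human GFAP drives the recombinase Cre in neural precursors. YSG mice also carry floxed Yap1, a transcriptional coactivator of the Hippo pathway that binds DNA through TEAD factors. There were 4 single-cell libraries, 1 per genotype and sex, so the level of a gene was not tested between genotypes within a sex or between sexes, which have no replicates. A test of whether state differences depend on genotype takes the male and female library as replicates. Genotype and sex cannot be told apart from the animal or the capture run. The number of animals per library, their ages and the exons removed from Yap1 are not named in the sources used.

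Guidance cues steer growing axons and migrating neurons by attraction or repulsion. Semaphorins act through plexins, with neuropilins as partners for most of the secreted class 3 forms. Slits act through Robos, netrins through Dcc and Unc5 receptors, and ephrins through Eph receptors, where ligand and receptor both sit in membranes and both can signal. In the cerebellum, granule cell precursors, the lineage from which Sonic hedgehog medulloblastoma arises, leave the cell cycle, extend parallel fibres and migrate inwards while several of these systems are active.

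After filtering, 7193 to 8419 cells per library remained, with medians of 5872.5 to 7419.5 unique molecular identifiers (UMIs, counts of captured transcripts) per cell. Cells were sorted into states by marker genes, none of them a guidance gene: cycling (1915 to 3145 cells), early postmitotic (1557 to 2477) and maturing (118 to 151, and 615 in YSG females). The remaining 2067 to 2973 tumour cells passed no gate. The maturing state was therefore small in 3 of 4 libraries, and its scarce genes rest on few UMIs. Markers of the granule lineage were found in all states (1179 to 2579 CPM, UMIs scaled to the total of the same cells). Cells set aside as other cell types had them at 688 to 1203 CPM by library, so the ranges overlap. Yap1 had 237, 6, 353 and 1 UMIs in tumour cells, in the order SG male, YSG male, SG female, YSG female, which also holds for all values given in fours below. Each pair of libraries shared 10 to 21 cell barcodes.

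Of the 74 members, 35 reached a mean of 5 CPM in the tumour cells of both sexes and 39 did not. Between states, 60 had enough counts to be tested and 14 did not. Rose and fell mean higher and lower than in the state compared, and no order in time was tested. States were compared within libraries by edgeR's quasi-likelihood test with library as a block and Benjamini-Hochberg adjustment over 13529 genes, and a gene was called at an adjusted p under 0.05 and a 2-fold difference. Against cycling cells, 14 of 60 members rose in early postmitotic cells and 6 fell, where 6.91% and 8.71% of all genes tested were called. In maturing cells 18 rose and 3 fell, against 9.88% and 10.2% of all genes. Without the YSG male library the number that fell in early cells was 10. All 14 that rose early were also called higher in maturing cells. Between maturing and early cells 3 members rose (Unc5c, Sema4f and Ephb1), where 0.628% of all genes were called. None fell by this rule in edgeR or in DESeq2, where edgeR called 0.237% of all genes. Without the 2-fold condition, 5 were lower at an edgeR adjusted p under 0.05 and 10 at an unadjusted p under 0.05. The median log2 difference over the 60 members was 0.28 in early and 0.29 in maturing cells against cycling cells, beside 0.01 and −0.01 over all genes. With library as a block, p-values measure the spread of the state differences among these 4 libraries, which differ in genotype and sex. That spread is moderated over genes by the quasi-likelihood fit. Each edgeR SE was computed from the log2 difference and the F statistic of the test.

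**Figure D1:**
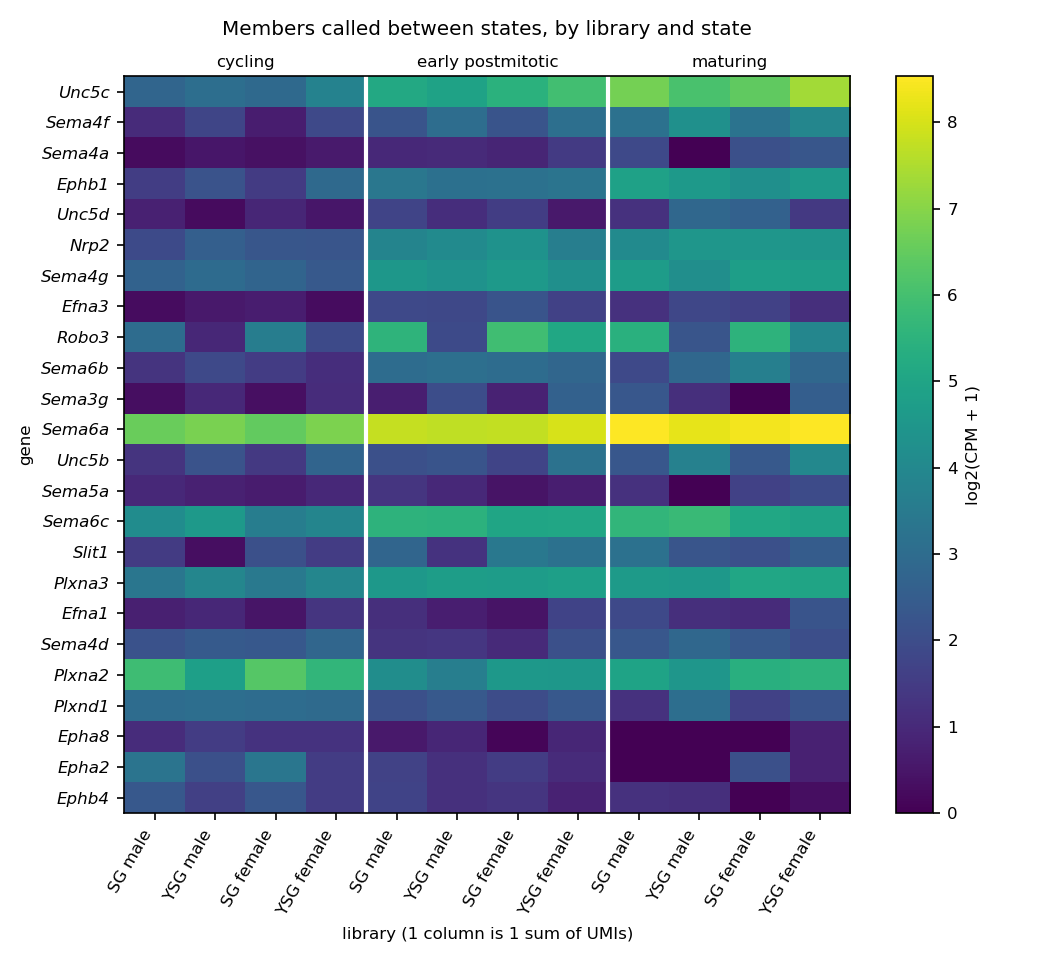
The 24 members called in early postmitotic or maturing cells against cycling cells, as log2(CPM + 1) in each library and state (colour; 1 column is the UMIs of 1 library and state summed). The rows are ordered from Unc5c, which rose most in maturing cells, to Ephb4, which fell most.

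Between genotypes, members were compared as the log2 ratio of CPM + 1, a scale that understates the change of scarce transcripts, over all tumour cells of a library. Past 2-fold in both sexes were 1 of 35 members higher in YSG (Ephb2) and 3 lower (Sema3c, Nrp1 and Epha2), where 0.961% and 1.25% of all genes measured in both sexes were higher and lower. With a pseudocount of 5 CPM, Nrp1 and Epha2 were no longer past 2-fold in both sexes. In males alone 2 of 36 were higher (Ephb2 and Sema3e) and 5 lower (Sema3c, Robo3, Nrp1, Epha2 and Plxna2), against 1.40% and 1.87% of genes. In females 2 of 36 were higher (Unc5c and Ephb2) and 3 lower (Sema3c, Epha2 and Nrp1), against 2.81% and 1.98%. The median ratio of the members was 0.16 in each sex, beside −0.01 and 0.00 over all genes. With the 3 states weighted equally, no member was higher past 2-fold in both sexes and Sema3c and Robo3 were lower, and in early cells alone Sema3e was higher and Sema3c lower. Folds below are ratios of summed UMIs per library total, with no pseudocount added, each followed by its exact conditional binomial 95% interval for counting error.

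**Figure D2:**
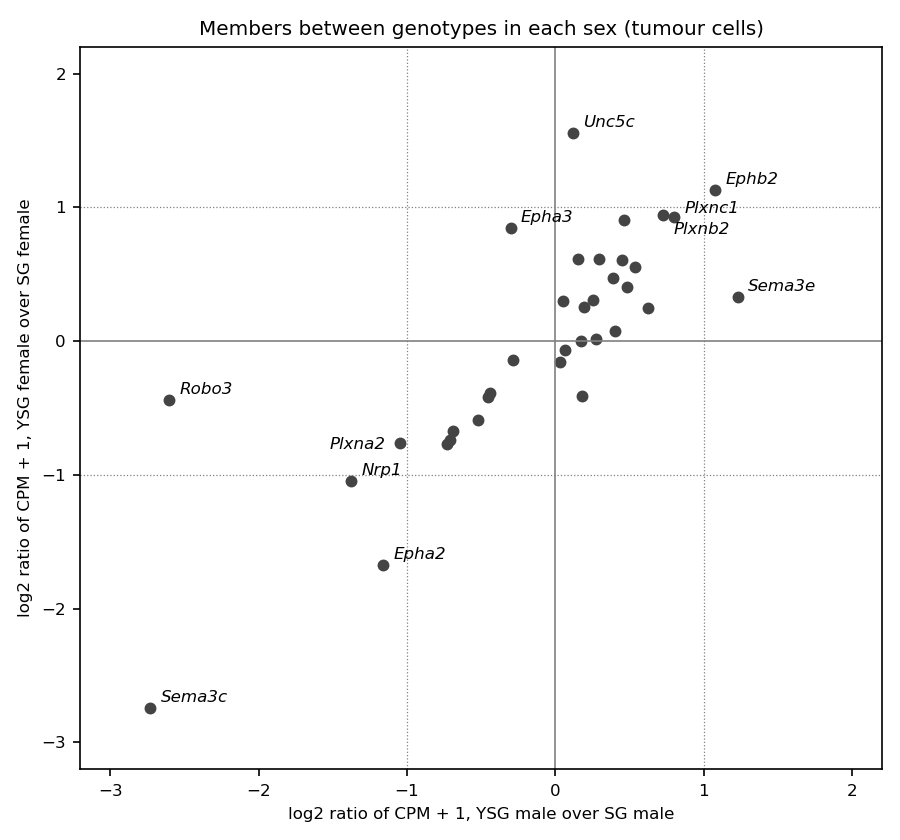
The log2 ratio of CPM + 1, YSG over SG, in males (horizontal) and females (vertical) for the 35 members at a mean of 5 CPM or more in both sexes; dotted lines mark 2-fold. Sema3c lies lowest in both sexes at −2.73 and −2.75, Robo3 is far lower in males (−2.60) than in females (−0.44), and Unc5c is past 2-fold in females (1.56) but not in males (0.12).

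For the 4 genes past 2-fold in both sexes, the region just upstream of a RefSeq start is shown. These regions were chosen because Yap1 acts through TEAD factors and Smoothened through Gli factors. Each line holds the 250 bases before the RefSeq start (GRCm38.p6), 5′ to 3′ on the strand of the gene. Capitals mark the TEAD core GGAATG (read as CATTCC on the other strand) and the Gli core TGGGTGG.
Sema3c: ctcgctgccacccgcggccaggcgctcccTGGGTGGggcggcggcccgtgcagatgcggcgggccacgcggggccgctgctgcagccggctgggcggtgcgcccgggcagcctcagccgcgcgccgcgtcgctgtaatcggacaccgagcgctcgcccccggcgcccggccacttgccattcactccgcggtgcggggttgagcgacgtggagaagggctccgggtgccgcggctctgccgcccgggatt
Epha2: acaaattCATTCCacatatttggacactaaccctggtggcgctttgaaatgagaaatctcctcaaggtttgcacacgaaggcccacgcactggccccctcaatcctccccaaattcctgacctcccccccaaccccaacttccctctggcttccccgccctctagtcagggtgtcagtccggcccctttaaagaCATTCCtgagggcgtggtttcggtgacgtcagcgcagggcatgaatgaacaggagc
Nrp1: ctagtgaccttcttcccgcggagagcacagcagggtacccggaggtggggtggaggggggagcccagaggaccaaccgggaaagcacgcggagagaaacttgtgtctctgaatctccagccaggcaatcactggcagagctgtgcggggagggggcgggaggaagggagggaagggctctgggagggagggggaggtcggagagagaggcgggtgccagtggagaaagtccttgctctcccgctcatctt
Ephb2: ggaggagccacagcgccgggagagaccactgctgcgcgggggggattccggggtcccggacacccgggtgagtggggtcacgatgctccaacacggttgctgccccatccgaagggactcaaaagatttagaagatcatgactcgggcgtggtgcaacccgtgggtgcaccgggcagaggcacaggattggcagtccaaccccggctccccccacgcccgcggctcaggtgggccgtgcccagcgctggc
The windows lie at chr5:17574566-17574815 and chr4:141300971-141301220 and chr8:128358823-128359072 on the plus strand and at chr4:136836013-136836262 on the minus strand. By the GENCODE positions given below, the Sema3c and Nrp1 windows lie inside the gene, downstream of its first annotated start. The Epha2 and Ephb2 windows lie upstream by both annotations. The Sema3c window held 1 Gli core and the Epha2 window 2 TEAD cores on the other strand, and these letters are not in the other two windows. No matches overlapped. Searched on both strands of the 32851 promoters in the table, GGAATG was in 12.6% and TGGGTGG in 8.11%. Among 77 promoters of the 61 members found there, 8 held GGAATG and 7 held TGGGTGG. The E-boxes CAGATG and CAGCTG, sites bound by neuronal basic helix-loop-helix factors, were in 14.4% and 13.0% of all promoters and in 5 and 12 of the 77. A match describes letters and is not evidence of binding.

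Among the ligands, 18 of the 20 semaphorins could be tested between states. In maturing against cycling cells 8 of the 18 rose, where 9.88% of all genes did (Sema3g, Sema4a, Sema4f, Sema4g, Sema5a, Sema6a, Sema6b and Sema6c). Sema6a, a transmembrane semaphorin that signals through class A plexins and acts in granule cell migration, stood at 94.4, 111, 89.2 and 114 CPM in cycling cells. Its level was 221, 210.1, 216 and 257 CPM in early cells and 369.9, 299.9, 331 and 369 CPM in maturing cells. The 3 states did not overlap: every maturing value was above every early value, and every early value above every cycling value. The log2 difference of Sema6a was 1.04 ± 0.07 (SE, 4 libraries, edgeR adjusted p = 2.83e-09) in early and 1.62 ± 0.08 (SE, 4 libraries, edgeR adjusted p = 1.69e-10) in maturing cells. In early cells it is only just 2-fold, at 0.99 without the SG female library.

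Sema4f, a class 4 transmembrane semaphorin, was at 1.06, 2.46, 0.618 and 2.71 CPM in cycling, 3.64, 7.24, 3.64 and 7.61 CPM in early and 8.07, 18.7, 8.55 and 14.2 CPM in maturing cells. In each state both YSG libraries were above both SG libraries, and in each library the level rose with each step. Its difference was 2.70 ± 0.26 (SE, 4 libraries, edgeR adjusted p = 3.82e-07) between maturing and cycling cells. Between maturing and early cells it was 1.03 (edgeR adjusted p = 0.0152), a call that was lost without the SG male, the YSG male or the YSG female library (adjusted p = 0.063, 0.075 and 0.092).

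Sema4g was at 5.40, 6.91, 5.78 and 4.19 CPM in cycling, 21.9, 19.2, 23.6 and 17.9 CPM in early and 25.6, 17.4, 26.7 and 25.8 CPM in maturing cells. Most of the step lay between cycling and early cells, at 1.78 ± 0.13 (SE, 4 libraries, edgeR adjusted p = 9.18e-09). Sema6c likewise stood at 16.8, 23.3, 11.2 and 13.7 CPM in cycling and 48.4, 53.5, 33.1 and 29.4 CPM in maturing cells, a difference of 1.18 ± 0.14 (SE, 4 libraries, edgeR adjusted p = 3.12e-06). Sema6b rose by 1.92 ± 0.33 (SE, 4 libraries, edgeR adjusted p = 1.37e-04), from 1.41, 2.67, 1.87 and 1.18 to 2.69, 6.22, 11.8 and 6.27 CPM.

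Sema4a, Sema3g and Sema5a were called higher in maturing cells on very few transcripts. Sema4a had 2, 0, 3 and 16 UMIs in maturing cells, Sema3g 3, 1, 0 and 20 and Sema5a 1, 0, 2 and 12, so each was at 0 in 1 library while the other libraries were at 1 UMI or more. Their differences were 2.68 (edgeR adjusted p = 2.26e-04), 1.71 (edgeR adjusted p = 0.00613) and 1.30 (edgeR adjusted p = 0.0478). Sema5a lost the call without the SG male, the SG female or the YSG female library (0.58 on the log2 scale without the last, adjusted p = 0.68), and Sema3g without the YSG female library (adjusted p = 0.24). Also higher than in tumour cells were Sema4a, at only 12.9 CPM (10 UMIs), and Sema5a, at 201 CPM (156 UMIs), in oligodendrocytes. That marker list (7 genes, summed) was at 22.5, 19.8, 12.7 and 14.8 CPM in cycling and 9.41, 23.6, 62.0 and 20.01 CPM in maturing cells, and its part in these results was not tested. Sema4d fell in early cells, from 3.42, 4.38, 4.12 and 6.07 to 1.41, 1.53, 1.03 and 3.26 CPM (log2 difference −1.42, edgeR adjusted p = 2.21e-05), and was not called in maturing cells (log2 difference −0.58, edgeR adjusted p = 0.178).

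Sema3c, a secreted class 3 semaphorin received by neuropilins with plexins (chr5:17574281-17730268, plus strand, GRCm38), had the largest log2 ratio of CPM + 1 between genotypes in each sex among the 35 members measured in both. Over all tumour cells it stood at 21.4, 2.37, 21.7 and 2.38 CPM, from 1530, 142, 1848 and 137 UMIs. Both SG libraries were high and both YSG libraries low, with nearly the same values in the sexes. It was lower in YSG by 9.01-fold (7.58 to 10.8) in males against 9.11-fold (7.65 to 10.9) in females. The gap was present in each state: 16.9, 1.99, 16.9 and 1.66 CPM in cycling, 28.2, 2.44, 34.2 and 2.49 CPM in early and 28.2, 1.24, 31.0 and 3.38 CPM in maturing cells. Each library was higher in early than in cycling cells, and every YSG value was below every SG value in each state. In YSG the maturing value of males rests on 1 UMI. Over the 4 libraries together Sema3c was not called between states (log2 difference 0.66, edgeR adjusted p = 1.99e-04 early, 0.67 (edgeR adjusted p = 0.0121) maturing).

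Sema3e, another class 3 semaphorin, which binds plexin D1 without a neuropilin, differed from Sema3c in direction. Its levels over all tumour cells were 19.8, 47.6, 28.4 and 36.0 CPM, 2.41-fold (2.26 to 2.57) higher in YSG males and 1.27-fold (1.19 to 1.34) higher in YSG females. Both YSG libraries were above both SG libraries. In early cells alone the values were 7.29, 30.1, 11.5 and 27.3 CPM, past 2-fold in both sexes, and in maturing cells 8.07, 29.9, 10.7 and 23.9 CPM. Cycling cells had 19.1, 47.4, 27.3 and 33.5 CPM, so the difference in females was small there. Of the 9 semaphorins at 5 CPM or more, 8 had ratios above 0 in both sexes and Sema3c alone was below. None of the other 7 reached 2-fold in either sex. The scarce Sema3a, Sema3b, Sema3d, Sema3f and Sema5b were not called between states or were not tested, and stood below 5 CPM in every library.

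**Figure D3:**
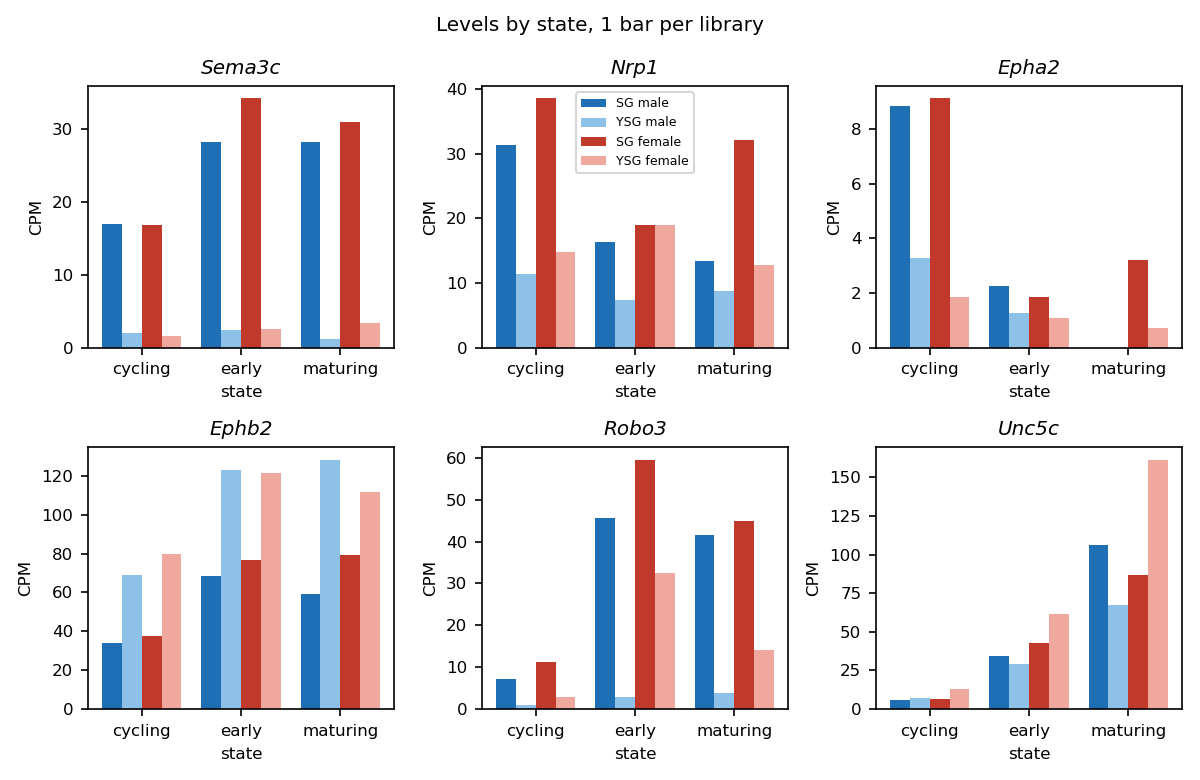
CPM of 6 members in cycling, early postmitotic and maturing cells, 1 bar per library (dark blue SG male, light blue YSG male, dark red SG female, pink YSG female; bars start at 0 and carry no error, since each is 1 library). Sema3c is low in both YSG libraries in all 3 states, Ephb2 is high in both, Robo3 is low in YSG males in all 3, and Unc5c rises from state to state in every library.

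The receptors for class 3 semaphorins differed from each other. Nrp2, the neuropilin with affinity for several class 3 semaphorins, was higher in early and maturing than in cycling cells. It was at 2.79, 5.06, 3.87 and 3.80 CPM in cycling and 13.6, 15.8, 19.5 and 11.5 CPM in early cells. In maturing cells it was at 16.1, 21.2, 21.4 and 20.7 CPM. No cycling value reached any maturing value, and the difference was 2.34 ± 0.21 (SE, 4 libraries, edgeR adjusted p = 1.45e-07). Nrp1 (chr8:128358604-128503363, plus strand), the receptor of Sema3a and a co-receptor of vascular endothelial growth factor, did not rise; it was at 31.4, 11.4, 38.5 and 14.8 CPM in cycling and 16.4, 7.38, 18.9 and 18.9 CPM in early cells (log2 difference −0.68, edgeR adjusted p = 0.00274), a difference under 2-fold.

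Between genotypes Nrp1 stood at 30.1, 10.97, 37.4 and 17.6 CPM over all tumour cells, with both SG libraries above both YSG libraries. It was lower in YSG by 2.74-fold (2.51 to 2.99) in males against 2.13-fold (1.98 to 2.29) in females. In cycling cells alone the gap was 2.76-fold in males against 2.60-fold in females. In early cells the male gap was 2.22-fold, but the female libraries had the same level (18.9 and 18.9 CPM). Nrp1, Epha2 and Sema3c are also abundant in endothelial cells. The endothelial list (6 genes, none at 0 in any library's tumour cells) was at 2.41, 1.97, 3.16 and 2.96 CPM in tumour cells. The part of endothelial transcripts in these results was not tested.

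Among the 9 plexins, Plxna3 rose in maturing cells and Plxna2 and Plxnd1 fell in early cells. Plxna3, a class A plexin that transduces class 3 semaphorin signals, was at 9.19, 14.2, 9.96 and 14.3 CPM in cycling and 24.2, 22.4, 32.1 and 30.9 CPM in maturing cells, without overlap (log2 difference 1.11, edgeR adjusted p = 2.36e-05, and 0.97 without the SG female library, just under the 2-fold rule). Plxna2, which receives Sema6a, was at 58.2, 27.4, 77.2 and 48.2 CPM in cycling and 16.97, 11.6, 22.4 and 21.9 CPM in early cells, a fall in every library of −1.61 ± 0.11 (SE, 4 libraries, edgeR adjusted p = 7.53e-09). Its level in maturing cells, 29.6, 21.2, 40.6 and 44.4 CPM, lay between these, and the difference from cycling cells was −0.63 (edgeR adjusted p = 0.00279). So the receptor Plxna2 was lowest in early cells, where its ligand Sema6a was higher than in cycling cells.

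Plxnd1, the receptor of Sema3e, fell in early cells from 7.06, 7.48, 7.19 and 6.81 to 3.23, 4.18, 2.98 and 4.09 CPM (log2 difference −1.09, edgeR adjusted p = 1.18e-05). In maturing cells it was called at −1.11 (edgeR adjusted p = 0.00413) on 1, 6, 2 and 15 UMIs, and that call was lost without the SG male, the SG female or the YSG female library (−0.98, −0.99 and −1.14, adjusted p = 0.019, 0.017 and 0.054).

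Between genotypes, Plxna2 was at 43.5, 20.5, 62.3 and 36.4 CPM over all tumour cells, 2.12-fold (1.98 to 2.27) lower in YSG males and 1.71-fold (1.63 to 1.80) lower in YSG females, the latter under 2-fold. Within a sex the SG library was the higher one, while the SG male and YSG female values lay close together. Plxnc1, the receptor of Sema7a, was at 23.8, 42.2, 24.7 and 47.8 CPM, 1.77-fold (1.67 to 1.89) higher in YSG males and 1.94-fold (1.83 to 2.05) higher in YSG females. Plxnb2, a receptor of class 4 semaphorins needed for cerebellar granule cell development, was at 48.7, 81.1, 43.4 and 84.3 CPM, 1.67-fold (1.59 to 1.74) and 1.94-fold (1.86 to 2.03) higher. For both genes each YSG library was above each SG library, and neither reached 2-fold on the CPM + 1 scale. The B class plexin Plxnb1 differed little (11.6, 12.1, 11.7 and 14.6 CPM), and Plxna1, Plxna4 and Plxnb3 were below 5 CPM in every library.

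Among Slits and their Robo receptors, Slit1 and Robo3 moved with state and were low in YSG males. Slit1, a secreted repellent, rose in early cells from 1.81, 0.249, 3.27 and 1.83 to 5.96, 1.39, 9.79 and 8.19 CPM (1.72 ± 0.20 (SE, 4 libraries, edgeR adjusted p = 2.95e-06)). In maturing cells its call (log2 difference 1.18, edgeR adjusted p = 0.0188) was lost without the SG male, the YSG male or the YSG female library (adjusted p = 0.080, 0.039 at a difference of 0.99, and 0.096). Over all tumour cells Slit1 was low in YSG males alone, at 3.06, 0.701, 4.18 and 4.37 CPM. Slit2 was at 6.56, 3.69, 7.55 and 4.37 CPM, with both YSG libraries below both SG libraries, and was not called between states (log2 difference 0.25, edgeR adjusted p = 0.457). Slit3 was below 1 CPM in every library.

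Robo3 (chr9:37415669-37433246, minus strand), a divergent Robo that in commissural neurons governs crossing of the midline, was higher in early and maturing than in cycling cells. Its levels were 7.11, 0.926, 11.3 and 2.79 CPM in cycling, 45.6, 2.78, 59.5 and 32.6 CPM in early and 41.7, 3.73, 44.9 and 14.2 CPM in maturing cells. In each library early and maturing cells were above cycling cells, but the YSG male library stayed lowest in each state, so that its maturing value was below the cycling values of both SG libraries. The difference was 2.57 ± 0.17 (SE, 4 libraries, edgeR adjusted p = 6.03e-09) in early and 1.98 ± 0.27 (SE, 4 libraries, edgeR adjusted p = 1.94e-05) in maturing cells. Over all tumour cells Robo3 was at 13.3, 1.35, 16.2 and 11.7 CPM, from 953, 81, 1376 and 670 UMIs. It was lower in YSG by 9.83-fold (7.83 to 12.5) in males against 1.39-fold (1.26 to 1.52) in females. In early cells the gap was 16.4-fold in males against 1.82-fold in females. Its UMIs were clumped: in maturing cells of YSG females 59 UMIs came from 18 cells, 15 of them from 1 cell, so the counting intervals are too narrow for this gene.

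Robo1 and Robo2, the main Slit receptors, moved less. Robo2 was at 128, 93.6, 144 and 108 CPM, lower in both YSG libraries, by 1.37-fold (1.33 to 1.42) in males against 1.34-fold (1.29 to 1.38) in females. Robo1 was at 33.0, 40.6, 39.4 and 60.7 CPM, 1.23-fold (1.16 to 1.30) and 1.54-fold (1.47 to 1.62) higher in YSG. Neither was called between states. Robo4, the endothelial Robo, had 6, 1, 5 and 2 UMIs in tumour cells.

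In the netrin system the receptors Unc5b, Unc5c and Unc5d rose in maturing cells, Unc5a and Dcc did not pass the 2-fold rule, and neither did a ligand. Unc5c (chr3:141465216-141834924, plus strand), a netrin receptor that mediates repulsion and is needed to keep granule cells within the cerebellum, rose most of all members tested in maturing against cycling cells. It was at 5.93, 7.48, 6.49 and 12.7 CPM in cycling, 34.2, 29.0, 42.5 and 61.3 CPM in early and 106, 67.2, 86.6 and 161 CPM in maturing cells. Every early value was above every cycling value and every maturing value above every early value. The difference from cycling cells was 2.26 ± 0.11 (SE, 4 libraries, edgeR adjusted p = 1.81e-10) in early and 3.59 ± 0.14 (SE, 4 libraries, edgeR adjusted p = 2.70e-11) in maturing cells, and between maturing and early cells 1.33 ± 0.13 (SE, 4 libraries, edgeR adjusted p = 1.39e-04).

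**Figure D4:**
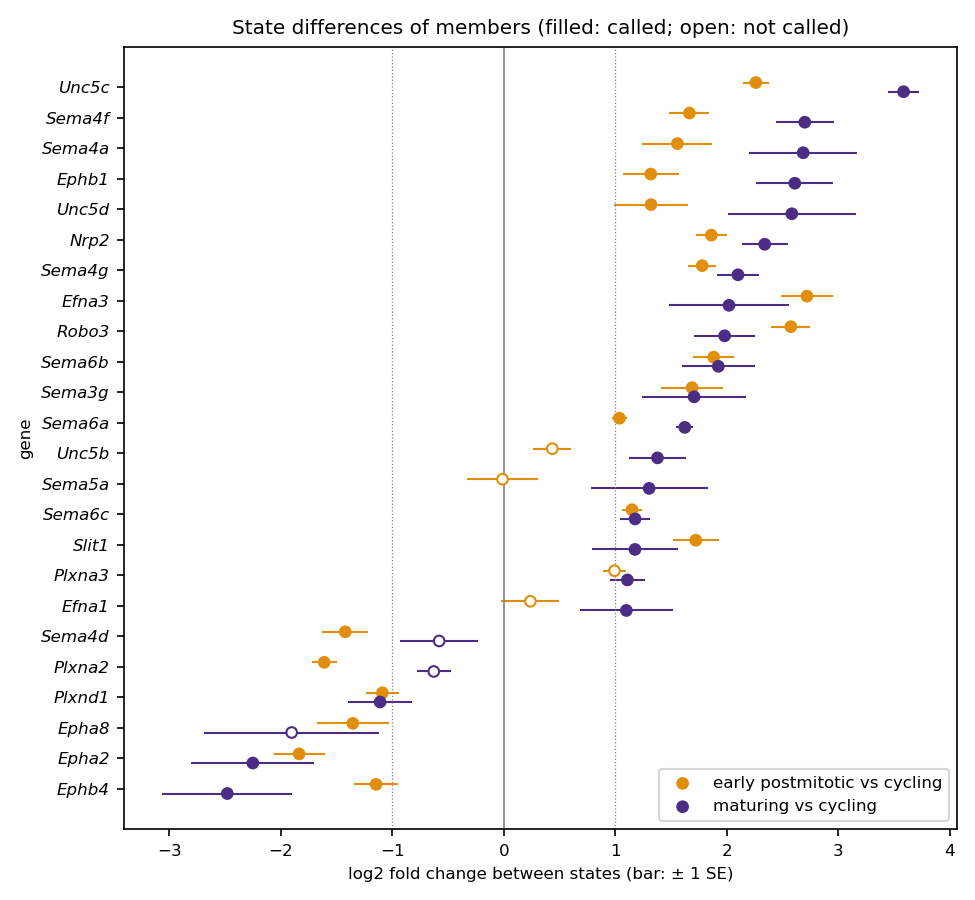
The log2 difference from cycling cells, ± 1 SE over 4 libraries, of the 24 members called in early postmitotic (orange) or maturing cells (purple); filled points were called, open points were not, and dotted lines mark 2-fold. Unc5c has the largest rise in maturing cells, at 3.59 (2.26 in early cells, where Efna3 and Robo3 lie higher), and Efna1, Sema5a and Unc5b differ mainly in maturing cells.

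Between genotypes Unc5c differed by sex, at 11.9, 13.0, 11.5 and 35.7 CPM over all tumour cells. The YSG female library was high and the other three lay close together: the fold was 1.09-fold (0.989 to 1.204) in males against 3.11-fold (2.88 to 3.36) in females. YSG females also had the most maturing cells, in which Unc5c is high. Within states the female difference was smaller, 1.96-fold in cycling, 1.44-fold in early and 1.86-fold in maturing cells, and in males the YSG level was 1.26-fold, 0.849-fold and 0.632-fold that of SG. The part of the share of each state in the female difference was not tested. Unc5c is also high in oligodendrocyte precursors. That list (5 genes) was at 42.2, 83.8, 41.8 and 86.4 CPM in tumour cells, higher in YSG of both sexes, and its part in the result was not tested.

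Unc5b and Unc5d, related receptors, were scarcer. Unc5b was at 1.41, 3.52, 1.67 and 5.67 CPM in cycling and 4.03, 12.4, 4.28 and 14.9 CPM in maturing cells (1.38 ± 0.25 (SE, 4 libraries, edgeR adjusted p = 2.61e-04)), higher in maturing cells of each library, with both YSG libraries above both SG libraries in each state. Unc5d rose from 28, 5, 48 and 10 to 1, 5, 5 and 7 UMIs, or 0.703, 0.178, 0.898 and 0.436 to 1.34, 6.22, 5.35 and 1.69 CPM (log2 difference 2.58, edgeR adjusted p = 0.00141). Unc5a was not called (log2 difference 0.88, edgeR adjusted p = 0.104). Dcc, the attractive netrin receptor, was at 202, 228, 203 and 203 CPM over all tumour cells and at 169.8, 201, 171 and 173, then 338, 277, 387 and 241, then 235, 229, 281 and 189.5 CPM in cycling, early and maturing cells. It was highest in early cells of each library, by 0.66 ± 0.09 (SE, 4 libraries, edgeR adjusted p = 1.54e-05), under the 2-fold rule.

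Of the ligands, Ntn1, the classical netrin, was lower in maturing than in cycling cells in every library (20.7, 28.4, 21.6 and 24.0 against 16.1, 13.7, 17.1 and 10.4 CPM), by −0.98 (edgeR adjusted p = 1.16e-04), just under 2-fold. Ntn4, a laminin-related netrin of basement membranes, went the other way, from 12.9, 18.9, 14.5 and 24.8 to 28.2, 37.3, 37.4 and 52.1 CPM (log2 difference 0.995, edgeR adjusted p = 9.35e-07), also just under 2-fold. Between genotypes Ntn4 was 1.40-fold (1.29 to 1.52) higher in YSG males and 1.93-fold (1.80 to 2.08) higher in YSG females. Ntn3 was at 2.91 to 3.34 CPM and shares a strand with an overlapping coding gene, Tbc1d24, so its counts are uncertain. Ntn5 had 2 UMIs in SG females and none elsewhere.

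Of 8 ephrins tested, the membrane-bound ligands, Efna3 and Efna1 were called between states. Efna3 had the largest early difference of the members tested and rose in early cells (0.226, 0.498, 0.618 and 0.218 to 2.73, 2.64, 3.64 and 2.17 CPM, 2.72 (edgeR adjusted p = 7.62e-08)), and Efna3 and Efna1 were called in maturing cells. Those 2 calls rest on 1, 2, 2 and 5 UMIs of Efna3 and 2, 1, 1 and 15 of Efna1 in maturing cells, with differences of 2.02 (edgeR adjusted p = 0.00535) and 1.10 (edgeR adjusted p = 0.0373). Efna3 lost the call without the YSG female library (adjusted p = 0.057), and Efna1 without the SG male, the SG female or the YSG female library (adjusted p = 0.11, 0.064 and 0.29). Efnb2, a transmembrane ephrin, and Efna5, a lipid-anchored one, were lower in both YSG libraries than in both SG libraries. Efnb2 was at 35.2, 21.2, 33.9 and 19.9 CPM, lower by 1.67-fold (1.56 to 1.78) in males against 1.70-fold (1.59 to 1.82) in females. Efna5 was at 22.9, 13.4, 26.6 and 15.2 CPM, lower by 1.70-fold (1.57 to 1.86) and 1.75-fold (1.61 to 1.89). Both are under 2-fold but alike in the sexes. Efna2 and Efnb1 stood at 17.2, 18.1, 17.3 and 16.5 and 16.6, 19.0, 16.2 and 11.99 CPM, and Efna4 and Efnb3 between 4.24 and 6.86 CPM.

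Of the 14 Eph receptors, the receptor tyrosine kinases that bind ephrins, Ephb1 was higher in maturing than in cycling cells. Epha2 and Ephb4 were lower there. Ephb1 was at 1.91, 3.52, 1.78 and 6.55 CPM in cycling, 9.35, 7.80, 8.02 and 8.63 CPM in early and 28.2, 23.6, 18.2 and 22.9 CPM in maturing cells. The states did not overlap in this order, and the difference was 2.61 ± 0.34 (SE, 4 libraries, edgeR adjusted p = 1.17e-05). Between maturing and early cells it was 1.29 (edgeR adjusted p = 0.0265), a call lost without the SG male or the YSG male library (adjusted p = 0.051 and 0.099). Ephb1 is abundant in oligodendrocytes too, whose marker levels by state are given above with Sema5a. Ephb4 fell from 4.09, 2.06, 4.02 and 1.83 to 1.34, 1.24, 0 and 0.241 CPM (log2 difference −2.48, edgeR adjusted p = 0.00209), with 1, 1, 0 and 1 UMIs in maturing cells. Epha8, at 1.13, 1.85, 1.40 and 1.40 CPM in cycling cells, was called lower in early cells only (log2 difference −1.36, edgeR adjusted p = 0.00173).

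Epha2 (chr4:141301240-141329384, plus strand), a receptor of A-type ephrins, was highest in the cycling and ungated cells of SG. Cycling cells had 8.84, 3.28, 9.11 and 1.83 CPM, early cells 2.24, 1.25, 1.87 and 1.09 CPM, and maturing cells 0, 0, 3 and 3 UMIs in all. It fell in each library between cycling and early cells, by −1.84 ± 0.23 (SE, 4 libraries, edgeR adjusted p = 4.74e-06), and was called lower in maturing cells too (log2 difference −2.25, edgeR adjusted p = 0.00286). Over all tumour cells Epha2 was at 7.90, 2.97, 9.08 and 2.16 CPM, and both SG libraries were above both YSG libraries. It was lower in YSG by 2.66-fold (2.24 to 3.16) in males against 4.21-fold (3.48 to 5.13) in females. In cycling cells alone the gap was 2.70-fold and 4.97-fold, as large as over all tumour cells. In early cells, with 17 to 27 UMIs per library, it was 1.78-fold and 1.72-fold with intervals that include 1.

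Ephb2 (chr4:136647539-136835988, minus strand), a receptor of B-type ephrins, was the member higher in YSG in both sexes. Over all tumour cells it was at 40.0, 85.4, 43.2 and 95.7 CPM, 2.13-fold (2.04 to 2.23) higher in YSG males and 2.21-fold (2.12 to 2.31) higher in YSG females. Both YSG libraries were above both SG libraries in each state as well: 34.2, 69.0, 37.6 and 80.0 CPM in cycling, 68.3, 123, 76.6 and 121 CPM in early and 59.2, 128, 79.1 and 112 CPM in maturing cells. Within states the fold was 2.02-fold, 1.80-fold and 2.17-fold in males and 2.13-fold, 1.58-fold and 1.41-fold in females. In cycling cells the male ratio fell just short of 2-fold on the CPM + 1 scale (0.99). Early cells were above cycling cells in each library, by 0.75 (edgeR adjusted p = 2.72e-07), under 2-fold.

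Epha3, Epha5 and Epha7, A-class receptors known from the mapping of axons onto their targets, were not called between states. Epha5 and Epha7 were at 36.9, 25.4, 50.1 and 32.9 and 30.3, 22.1, 30.8 and 23.4 CPM, each lower in both YSG libraries than in the SG library of the same sex. Epha3 was at 26.3, 21.1, 27.0 and 49.3 CPM, high in YSG females alone. Epha4, which takes both ephrin classes, was at 4.03, 4.01, 4.65 and 1.32 CPM, low in YSG females alone. Epha1, Epha6, Epha10, Ephb3 and Ephb6 were below 5 CPM in each library.

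Between the sexes, SG showed no member past 2-fold among 37 measured, where 0.0608% of genes were higher and 0.0405% lower in females. In YSG 3 of 35 were higher in females (Robo3, Unc5c and Epha3) and none lower, where 0.904% and 0.361% of genes were. Robo3 was 8.62-fold (6.83 to 10.99) higher in YSG females than in YSG males but 1.22-fold (1.12 to 1.32) in SG. Unc5c was 2.75-fold (2.53 to 2.99) higher in YSG and 0.966-fold (0.880 to 1.06) in SG, and Epha3 2.33-fold (2.18 to 2.49) higher in YSG and 1.03-fold (0.967 to 1.09) in SG. Each sex of a genotype is 1 library, so sex cannot be told apart from animal or capture.

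Whether the state differences themselves differed between genotypes was tested with an interaction in the edgeR fit, taking the male and the female library of a genotype as its replicates, a test added after the data were seen. It called 13 of 60 members for early against cycling cells, where 8.35% of all genes were called, and 4 of 60 for maturing cells, where 2.44% were. Ephb1 differed in both: its cycling level was higher in YSG, and the interaction, YSG minus SG, was −1.49 in early and −1.52 in maturing cells on the log2 scale (adjusted p = 2.29e-04 and 0.0243). Dcc also rose less in early cells of YSG, with an interaction of −0.61 (adjusted p = 2.31e-06). The count for early cells fell to 4 without the SG male library and to 3 without the SG female library, and for maturing cells to 1, 0 and 2 without the SG male, SG female and YSG female libraries.

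The 5 name matches outside the guidance families were Unc50, at 22.2, 18.1, 25.1 and 22.6 CPM and not called between states (log2 difference 0.27, edgeR adjusted p = 0.0815), Unc5cl, with 1 UMI, and the antisense RNAs of Plxna4, all below 1 CPM. Plxna4 itself lies on the opposite strand and was also below 1 CPM in tumour cells.

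Some members were higher in the few cells set aside by markers of other types than in tumour cells. Tumour cells here are the kept cells that were not set aside. The cells set aside as other types had cycling markers at 2084, 1595, 1848 and 661 CPM (tumour cells 3417, 2945, 3553 and 2610). Their granule lineage markers were at 868, 1203, 1035 and 688 CPM (tumour cells 1341, 1697, 1312 and 1838). Whether some of them came from the tumour was not tested. These cells were pooled over the 4 libraries: 79 leukocytes, 239 astroglia, 69 oligodendrocytes, 80 oligodendrocyte precursors, 29 endothelial and 24 mural or fibroblast cells, each gated by its markers. In endothelial cells Robo4 was at 118 CPM (33 UMIs), 2301-fold (1198 to 4653) its level in tumour cells. Nrp1 was at 278 CPM (78 UMIs), 10.9-fold (8.58 to 13.6), Plxnd1 at 114 CPM (32 UMIs), 19.0-fold (12.9 to 26.9), Epha2 at 57.0 CPM (16 UMIs), 9.52-fold (5.43 to 15.5) and Sema3c at 92.6 CPM (26 UMIs), 6.94-fold (4.53 to 10.2) in endothelial cells. Efna1, Epha4 and Nrp2 were at least 5-fold higher there as well. The endothelial cells numbered 5, 4, 15 and 5 by library, and the tumour levels in these folds pool both genotypes. For Sema3c that pooled level, 13.3 CPM, is below the level of SG tumour cells given above, so its fold over SG tumour cells alone is smaller.

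**Figure D5:**
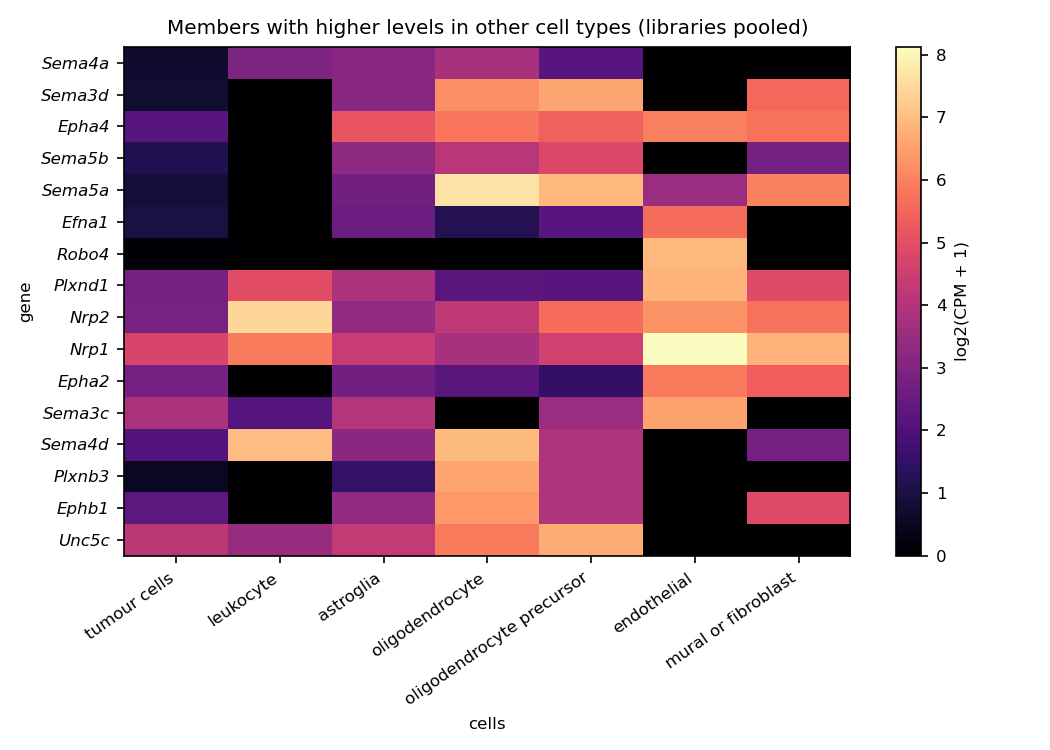
Level as log2(CPM + 1) of the 16 members that were 5-fold or more higher in another cell type, with the libraries pooled; each column is a cell type and the first is tumour cells. Robo4 is seen in endothelial cells, Plxnb3 in oligodendrocytes, Sema5a in oligodendrocytes and their precursors, and Sema4d and Nrp2 in leukocytes.

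In oligodendrocytes Sema5a was at 201 CPM (156 UMIs), 239.5-fold (194 to 295), Plxnb3, a receptor of Sema5a, at 94.0 CPM (73 UMIs), 218-fold (161 to 295), and Sema4d at 125 CPM (97 UMIs), 38.0-fold (30.5 to 46.9). Ligand and receptor were thus both high in these cells, but Sema5a was not particular to them. In oligodendrocyte precursors Sema5a was at 118 CPM (66 UMIs), 140-fold (105 to 185). It was at 63.7 CPM (11 UMIs), 75.9-fold (37.4 to 138), in mural or fibroblast cells, and 6.64-fold higher in astroglia. The mural or fibroblast cells numbered 15, 0, 9 and 0 by library, so all were from SG. The tumour level in that fold pools both genotypes. Sema3d was high in oligodendrocytes and their precursors, with 96.4 CPM (54 UMIs), 141-fold (102 to 191) in the latter. Unc5c was at 104 CPM (58 UMIs), 6.10-fold (4.62 to 7.90) in precursors. In leukocytes Sema4d, a known immune semaphorin, was at 126 CPM (37 UMIs), 38.3-fold (26.8 to 53.2) and Nrp2 at 174 CPM (51 UMIs), 28.3-fold (21.0 to 37.4). In astroglia Epha4 was at 34.8 CPM (75 UMIs), 9.53-fold (7.43 to 12.1). Its level was higher still in endothelial cells (60.5 CPM, 16.6-fold), oligodendrocytes (54.1 CPM, 14.8-fold) and their precursors (41.1 CPM, 11.2-fold). Sema5b was 7.19-fold, 13.7-fold and 21.8-fold its tumour level in astroglia, oligodendrocytes and precursors, from 19, 13 and 15 UMIs. Nrp2 was 8.16-fold higher in precursors. Sema4a, Sema3d and Efna1 were also 5-fold or more higher in astroglia.

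Guidance genes outside the symbol rule were counted from a list of 69, of which 66 were tested. In maturing against cycling cells 11 rose and 7 fell, where 9.88% and 10.2% of all genes did, so the share that fell is near that of all genes. In early cells 8 rose and 4 fell, against 6.91% and 8.71%. Of 6 adhesion co-receptors 4 rose in maturing cells and Alcam fell (log2 difference −1.41, edgeR adjusted p = 2.45e-07). L1cam, an adhesion molecule that partners neuropilins, rose by 2.88 ± 0.15 (SE, 4 libraries, edgeR adjusted p = 7.70e-10), and Nfasc, a neurofascin of the same family, by 2.75 ± 0.16 (SE, 4 libraries, edgeR adjusted p = 1.45e-09). The collapsin response mediators Dpysl3 and Dpysl5, which act downstream of class 3 semaphorins, rose by 2.38 ± 0.12 (SE, 4 libraries, edgeR adjusted p = 6.00e-10) and 1.46 ± 0.15 (SE, 4 libraries, edgeR adjusted p = 8.50e-07), and Srgap3, a Slit-Robo GTPase-activating protein, by 2.55 ± 0.12 (SE, 4 libraries, edgeR adjusted p = 1.48e-10). Of the 8 collapsin mediators and MICALs, Mical1 fell (log2 difference −1.73, edgeR adjusted p = 2.72e-07). Dock1, a Rac activator downstream of Dcc, fell by −2.16 ± 0.15 (SE, 4 libraries, edgeR adjusted p = 9.05e-09), and Rgma, a ligand of neogenin, by −1.65 ± 0.15 (SE, 4 libraries, edgeR adjusted p = 2.87e-07).

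Between genotypes, of 60 listed genes measured in both sexes, L1cam was higher past 2-fold in both sexes and Rgma lower, 1 gene in each direction where 0.961% and 1.25% of all genes were. L1cam was at 9.14, 19.4, 6.99 and 28.8 CPM and Rgma at 70.9, 32.7, 89.7 and 31.6 CPM, and for each gene the SG and YSG libraries did not overlap.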

How the data were processed

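Dissociated tumour cells were captured with the 10x Genomics 3' kit. The matrices come from Cell Ranger 5.0.1, per the file headers, on mm10, per the submitters' processing notes. The deposited values are counts of UMIs per gene and barcode, not normalized (58478914 to 86906706 per library). They see only the 3' end of a transcript and were used as deposited. The members and lists were chosen with earlier results of these data known.

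Cells needed 500 UMIs and 300 genes, with mitochondrial UMIs of 20% at most. Cells of other types were set aside first (3 or more distinct markers of a list and 10 or more marker UMIs per 10000). Cycling cells had 15 or more UMIs of 17 markers per 10000. Maturing cells had 3 or more of 9 markers, with 2 or more distinct; the other listed marker, Snap25, was left out after it was seen to dominate the score in other states. Early cells had 8 or more of 4 markers. The cuts were set after the marker distributions were seen, not from the members. Within 20% of a cut lay 2.74% to 3.82% (cycling), 9.10% to 15.0% (early) and 2.55% to 5.92% (maturing) of the tumour cells. Cells past the cycling and maturing cuts together (10 to 30 per library) were set aside. Scrublet's own threshold marked 0 or 1 cell per library, so doublets were kept, and an alternative removed 368 to 418 cells of top scores per library.

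UMIs were summed per library and state. The sums were tested with edgeR 4.0.16 in R 4.3.3 (quasi-likelihood F test, TMM, filterByExpr, library as a block, Benjamini-Hochberg over 13529 genes), without the gate markers. The states of a library come from 1 capture, which is what pairs them. DESeq2 1.42.0 was an alternative. The code was tested on simulated data. Genotypes and sexes were compared as ratios of CPM with a pseudocount of 1 at a mean of 5 CPM or more. Intervals cover counting error only. Over the summed cells, abundant members are precise within a library, and scarce ones in maturing cells are not.

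Named are members called in maturing against cycling cells, those past 2-fold in both sexes, the 10 with the largest mean log2 ratio, Robo3, Unc5c, Sema3c, and those 5-fold or more higher in another cell type with 10 or more UMIs there; the remaining members are given by family. Positions are from GENCODE M21 and promoters from RefSeq, both GRCm38. Computation used Python 3.11.15, numpy 2.4.6, scipy 1.17.1, pandas 2.3.3, scanpy 1.11.5 and matplotlib 3.10.9.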

Additional observations from a re-analysis of the deposited data

Results flagged for a closer look

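The difference between states itself differed between SG and YSG for 13 members in early against cycling cells and 4 in maturing against cycling cells, by an interaction in the edgeR fit with the male and female library of a genotype as replicates (YSG minus SG, log2). In early cells Epha4 (1.46, adjusted p = 0.0158) and Nrp1 (0.94, adjusted p = 0.00193) had a higher difference in YSG than in SG. The same held for Sema3e (0.83, adjusted p = 4.09e-04) and Plxna2 (0.60, adjusted p = 0.00186). For Nrp1 the log2 ratio of CPM + 1, early over cycling, was −0.90, −0.56, −0.99 and 0.33. Its YSG libraries thus differed from each other in direction. For Epha4 the levels were 4.45, 3.77, 4.98 and 1.31 CPM in cycling and 1.57, 3.90, 1.59 and 0.895 CPM in early cells, so the YSG libraries differed from each other. That call was lost without the SG male, SG female or YSG male library (adjusted p = 0.142, 0.277 and 0.336) and with doublets removed. Ephb1 (−1.49, adjusted p = 2.29e-04), Nrp2 (−0.69, adjusted p = 0.0233) and Dcc (−0.61, adjusted p = 2.31e-06) rose less in YSG. Smaller negative values were found for Sema4c (−0.52), Sema7a (−0.45), Plxnb2 (−0.41), Sema6c (−0.40), Plxnc1 (−0.36) and Robo2 (−0.31), with edgeR adjusted p from 0.0124 to 0.0489.

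In maturing cells the values were −1.52 for Ephb1 (adjusted p = 0.0243), −1.11 for Plxnb2 (adjusted p = 0.00188), 0.79 for Plxna2 (adjusted p = 0.0407) and −0.45 for Dcc (adjusted p = 0.0144). Plxnb2 was at 50.7, 84.9, 43.4 and 97.0 CPM in cycling and 72.6, 82.1, 64.1 and 55.9 CPM in maturing cells. Its SG levels were higher in maturing cells than in cycling cells, and its YSG levels lower. Of the early interactions, Dcc, Ephb1 and Sema3e stayed called without each library in turn.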

How the results depend on the processing

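Over 13 alternatives for the comparison of states and 15 for that of genotypes, no called value changed direction. The ratio of Unc5c in males, which was not past 2-fold (0.12), was −0.23 in early and −0.65 in maturing cells alone. The count of members lower in early than in cycling cells was 6 and ranged from 6 to 10 when each library was left out, with 10 without YSG males. Lower in maturing than in cycling cells were 3 members, 6 with top-scored doublets removed, 5 without a filter on low counts, 0 with gates set on counts thinned to 2000 UMIs per cell, and 3 with each library left out. The thinning was used to gate cells only, and the sums kept all UMIs of the cells so gated. It left 42, 38, 39 and 203 maturing cells. Higher in maturing than in early cells were 3, 2 to 4 with a library left out, and 0 without the replicate block, which also ended the maturing calls of Robo3, Efna1, Sema3g, Sema5a and Slit1 and the early call of Unc5d. The block changed no other call of a named member. Lower there were 0, and 2 under stricter gates. Members higher past 2-fold in both sexes were 1, then 0 in cycling cells alone or with equal state weights, and 2 in maturing cells alone. Lower in both sexes were 3, then 1 in early cells alone, with a pseudocount of 5 CPM or at a mean of 20 CPM. In males 2 were higher, then 1 in cycling cells, in early cells or with equal weights, and 5 in maturing cells. Lower in males were 5, then 3 with a pseudocount of 5 CPM, in early cells or with equal weights, and 2 at a mean of 20 CPM. In females 2 were higher, then 7 with no filter on CPM, 4 in maturing cells and 1 with equal weights. Lower in females were 3, then 5 in cycling cells and 1 in early cells, with a pseudocount of 5 CPM or at a mean of 20 CPM. The interaction with genotype called 13 members in early cells, 3 to 16 with a library left out. It called 4 in maturing cells, 7 under looser gates, 2 under stricter gates, 1 under thinned gates, and 0 to 5 with a library left out. The causes were not tested, except that fewer cells or libraries enter where states or libraries are left out. Scarce members in maturing cells rest on few UMIs.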

Other observations

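For Plxnc1 and its ligand Sema7a, both YSG libraries were above both SG libraries, though for Sema7a the female values were nearly equal. Plxnc1 was 1.77-fold (1.67 to 1.89) higher in YSG males and 1.94-fold (1.83 to 2.05) higher in YSG females, and Sema7a stood at 44.4, 53.8, 52.1 and 52.7 CPM. For Ephb2 and Efnb2, a receptor and a ligand that can bind each other, the genotypes differed in opposite directions in both sexes. Ephb2 was above its SG level in YSG (1.07 and 1.13 on the log2 scale) and Efnb2 below it (−0.71 and −0.74). These pairs were chosen after their values were seen, and no test was made.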
